A study of Homo sapiens with 4 samples.

Results

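The subunits of the respiratory chain complexes and of the ATP synthase were read as a group from ribosome profiling of HEK293T, a human line of embryonic kidney origin with the simian virus large T antigen. Members were genes named NDUFA, NDUFB, NDUFC, NDUFS or NDUFV followed only by a number, and SDHA to SDHD. Symbols that begin with UQCR, ATP5, or COX4 to COX8 followed by A, B, C or I were also members, with CYC1 and NDUFAB1. All had to be listed in all 4 count tables, and assembly factors named NDUFAF or SDHAF were not members. There were 60 such genes among 8568 transcripts listed in all 4 tables, with a single transcript per gene. They comprised 27 genes of complex I, 2 of complex II, 9 of complex III, 8 of complex IV and 14 of the ATP synthase (complex V). NDUFA4, first named as a complex I subunit, was counted with complex IV. The list of symbols for these complexes held 89 genes, so no complex should be taken as complete here. NDUFS1, SDHA, SDHB and ATP5MC3 were among those not analysed.

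The respiratory chain of the mitochondrial inner membrane passes electrons from NADH (complex I) and succinate (complex II) through complex III and cytochrome c to oxygen at complex IV, and pumps protons on the way. The ATP synthase lets the protons flow back through a ring of c subunits, which turns a stalk inside the catalytic F1 head. The core of several complexes is encoded by mitochondrial DNA, whereas all genes described here are nuclear and are translated on cytoplasmic ribosomes.

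Untreated cells and cells given 500 µg/mL G418 for 24 hr were each profiled in 2 biological replicates, lettered A and B. G418 is an aminoglycoside that binds the decoding center and lets ribosomes read through a normal termination codon (NTC). Both groups are the same cell line in the same medium, and no RNA sequencing was read beside the ribosome protected fragments (RPFs), so mRNA level and translation cannot be told apart in CDS reads, nor can fewer cells and less RNA per cell. Reads on mRNAs ranged from 2440204 (untreated B) to 6082600 (untreated A) per library, and 3′UTR reads were 0.434% and 0.388% of them in untreated cells against 2.00% and 1.92% in G418. Of the HEK293T markers, VIM, NEFM and LHX1 were listed in every library, PAX2 only in the G418 tables and PAX8 in none. ALB, PTPRC, HBG1, DES and COL1A2, which mark other cell types, were in no table.

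The subunit genes were short, densely translated messages. Their median CDS was 412.5 nt against 1362 nt for all transcripts, and their median 3′UTR 154.5 nt against 929.5 nt. Their median CDS density over the 4 libraries was 465.6 RPKM (reads scaled to kilobases of CDS and to library size) against 17.7 RPKM for all transcripts. Together they took 2.19% and 2.25% of CDS reads in the untreated libraries and 2.17% and 2.18% in the G418 libraries. The group means of this share, 2.22% ± 0.0389 and 2.18% ± 0.0113 (SD, n = 2), differed by less than the 2 untreated libraries did. With 2 libraries a group, an exact permutation test of a single value cannot go below p = 0.333, so none was run.

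**Figure D1:**
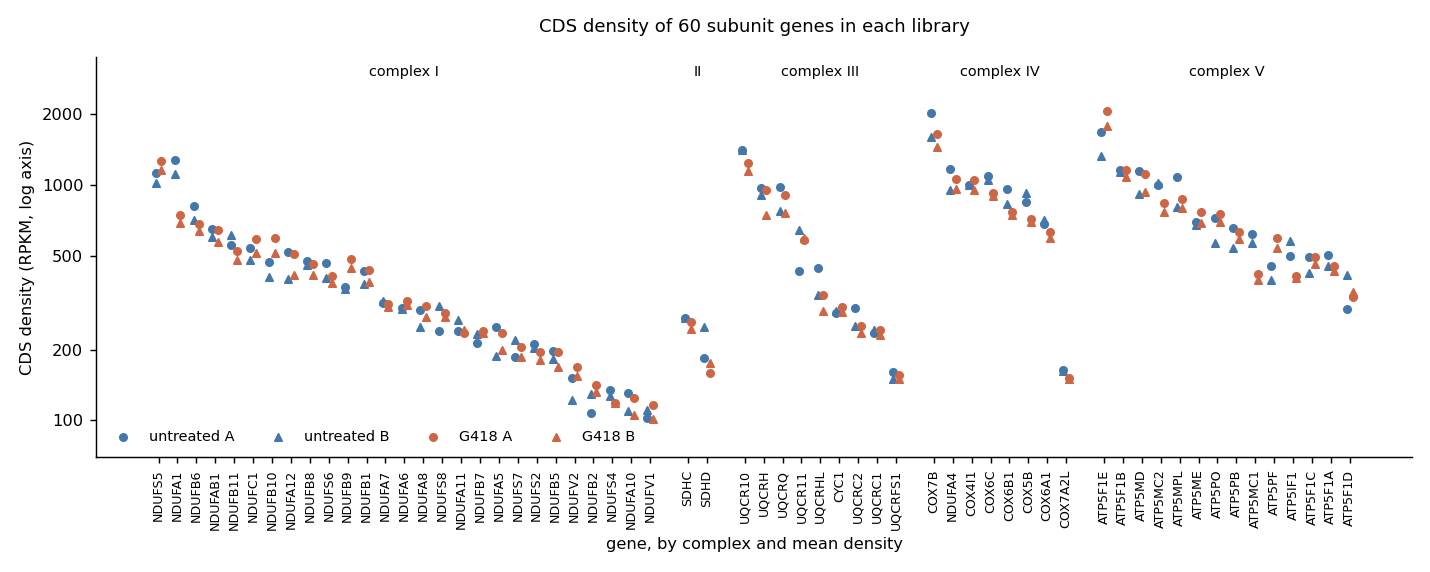
CDS density in RPKM (log axis) of each of the 60 subunit genes in the 4 libraries, grouped by complex and ordered by mean density. Circles are replicate A and triangles replicate B, blue untreated and orange G418. Members of complex I span 108 to 1141 RPKM on average, and the densest genes are ATP5F1E and COX7B.

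Within complexes the subunits did not share a single density. The ATP synthase genes had mean densities of 349.9 RPKM for ATP5F1D, the δ subunit of the stalk, to 1714 RPKM for ATP5F1E, the small ε subunit. The catalytic β subunit ATP5F1B had 1158, 1135, 1157 and 1086 RPKM in untreated A, untreated B, G418 A and G418 B. Its partner in the F1 head, the α subunit ATP5F1A, had 507.3, 452.1, 451.5 and 433.3 RPKM. The densities of this pair thus stood in a ratio of 2.28, 2.51, 2.56 and 2.51, although α and β occur in equal copies in the head. ATP5MC1 and ATP5MC2, c ring genes that encode the same mature protein behind different import sequences, stood in a ratio of 1.61, 1.79, 2.00 and 1.93 (ATP5MC2 over ATP5MC1).

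In complex I the highest mean densities belonged to NDUFS5 (1141 RPKM) and NDUFA1 (956.0 RPKM), both small accessory subunits. The lowest belonged to NDUFA10 (117.6 RPKM), an accessory subunit, and NDUFV1 (108.0 RPKM), the flavoprotein that accepts electrons from NADH. In complex III, UQCR10 (1304 RPKM) and the hinge protein UQCRH (897.3 RPKM) stood above the core protein UQCRC1 (237.2 RPKM) and the Rieske iron-sulfur protein UQCRFS1 (153.8 RPKM). In complex IV, COX7B (1681 RPKM) and NDUFA4 (1038 RPKM) were the densest, and COX6A1 (656.7 RPKM) and COX7A2L (156.6 RPKM), a supercomplex assembly factor related to COX7A, the least dense. The membrane anchors of complex II were at 263.6 RPKM (SDHC) and 191.7 RPKM (SDHD). In complexes I and III the genes with the lowest densities thus included electron-carrying subunits, and the genes with the highest densities were small accessory subunits.

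CDS reads were then compared between G418 and untreated cells with edgeR's quasi-likelihood test over all 8494 transcripts that passed its filter on low counts, at an adjusted p under 0.05. All 60 members passed the filter. Of them 12 fell and 1 rose, against 3.21% of all transcripts lower and 5.31% higher, shares not matched for read depth. The median log2 fold change of the 60 members was -0.11, against 0.00 for all transcripts, and it was below 0 in 46 members. CDS counts scaled to library size (CPM, with TMM factors) were lower in both G418 libraries than in both untreated libraries for 30 members, against 24.8% of all transcripts, and higher for 6, against 26.5%. Scaled by library totals in place of TMM, 4 members rose and 5 fell, against 10.4% of all transcripts higher and 1.41% lower. The median of all transcripts then moved to 0.11, and 33 members were below 0. The calls also turned on single libraries, and leaving out a library moved the share called over all transcripts too. The members' median was -0.16 without untreated A and -0.13 without untreated B, against 0.007 for all transcripts in both. It was -0.15 without G418 A and -0.11 without G418 B, against -0.003 and 0.002. Of the 13 calls, 11 were lost whichever G418 library was left out, and ATP5MC1 without G418 A. DESeq2 called 5 members lower and none higher, against 1.65% and 1.33% of all transcripts, with 22 members at an unadjusted p under 0.05.

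**Figure D2:**
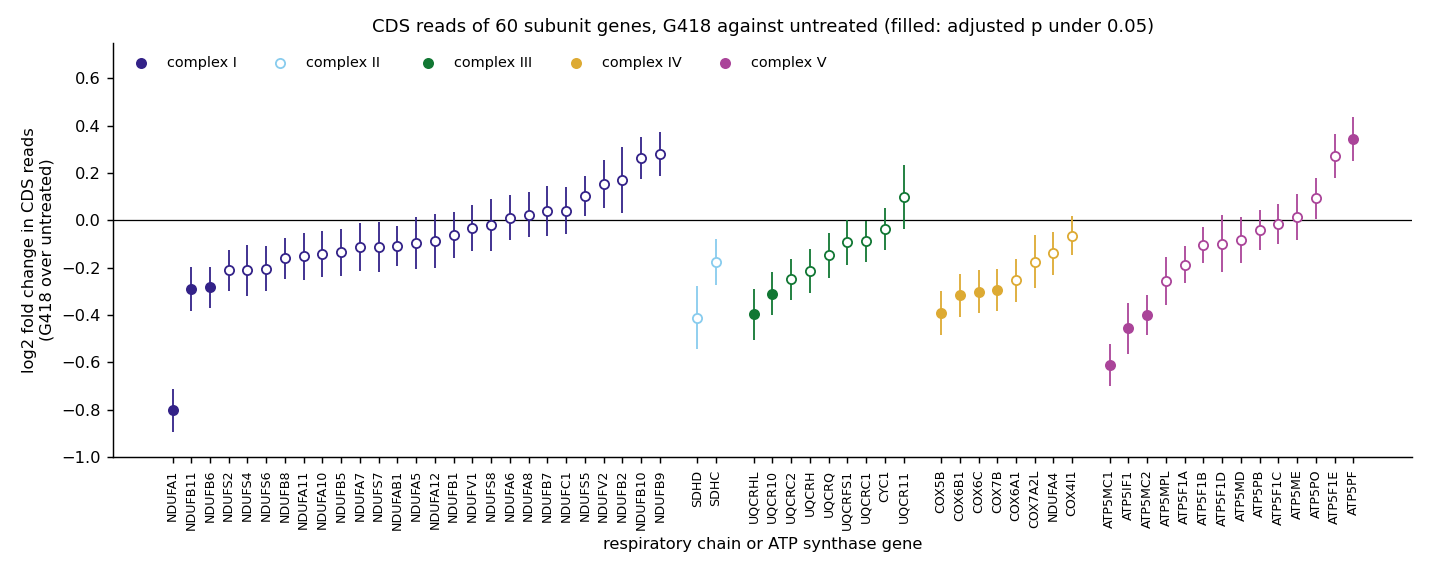
Log2 fold change in CDS reads (G418 over untreated, edgeR) of the 60 subunit genes, ordered within each complex, with bars of 1 SE. Filled points passed an adjusted p of 0.05 and open points did not, and NDUFA1 at -0.80 is the lowest.

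NDUFA1, a membrane subunit of complex I that is needed for its assembly, had the lowest fold change. It had 368.3 and 349.9 CPM in untreated cells and 206.5 and 205.9 CPM in G418. Both G418 libraries lay far below both untreated libraries, with a log2 fold change of -0.80 (SE 0.09, edgeR adjusted p = 1.7e-06). NDUFA1 was also the only member below the threshold in all 10 alternative settings, with an adjusted p of at most 0.0078. NDUFB11 and NDUFB6, other membrane accessory subunits, fell by 0.29 (SE 0.09) and 0.28 (SE 0.09) on the log2 scale, with adjusted p of 0.047 and 0.036. NDUFB10 (log2 fold change 0.26, adjusted p = 0.060) and NDUFB9 (0.28, adjusted p = 0.059) lay just outside the threshold with values above 0. The other 22 complex I genes did not pass, NDUFV1 (log2 fold change -0.03, SE 0.10) and the mitochondrial acyl carrier protein NDUFAB1 (-0.11, SE 0.09) among them.

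Both c ring genes analysed here fell. ATP5MC1 had 376.1 and 375.6 CPM in untreated cells and 243.9 and 247.7 CPM in G418, a log2 fold change of -0.61 (SE 0.09, adjusted p = 4.1e-05). ATP5MC2 had 630.5 and 700.3 CPM in untreated cells and 507.6 and 498.1 CPM in G418, a log2 fold change of -0.40 (SE 0.09, adjusted p = 0.0026). In neither gene did the groups overlap, and the summed share of both genes was 0.100% ± 0.0050 of CDS reads in untreated cells and 0.0775% ± 0.0003 in G418 (SD, n = 2). ATP5IF1, the inhibitor that blocks ATP hydrolysis by the synthase, had 156.1 and 197.0 CPM in untreated cells and 123.1 and 130.1 CPM in G418 (log2 fold change -0.46, SE 0.11, adjusted p = 0.0064). ATP5PF, coupling factor 6 of the peripheral stalk, was the member that rose, from 238.7 and 226.7 CPM to 298.5 and 293.1 CPM (log2 fold change 0.34, SE 0.09, adjusted p = 0.017).

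The F1 head did not pass the test in either gene. ATP5F1B had 2899 and 3090 CPM in untreated cells and 2768 and 2798 CPM in G418 (log2 fold change -0.11, SE 0.07, adjusted p = 0.43). ATP5F1A had a log2 fold change of -0.19 (SE 0.08, adjusted p = 0.13). ATP5F1E was just outside the threshold at 0.27 (SE 0.09, adjusted p = 0.066), and ATP5F1D was at -0.10 (SE 0.12, adjusted p = 0.67).

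**Figure D3:**
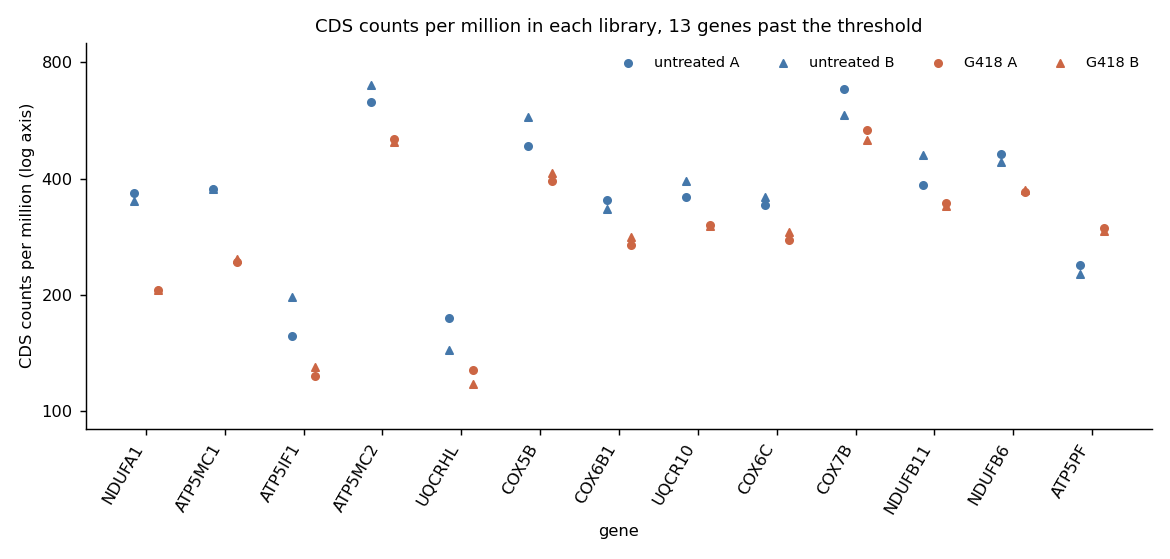
CDS counts in CPM (TMM-scaled, log axis) in each library for the 13 subunit genes past the threshold, ordered by fold change. Circles are replicate A and triangles replicate B, blue untreated and orange G418, and in all 13 genes the orange and blue points are apart.

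In complex IV 4 of the 8 genes fell, against 3.21% of all transcripts, a share not matched for read depth. All 8 log2 fold changes were below 0. With DESeq2 and with library totals COX5B kept the call, and the other 3 lost it. COX5B, which binds zinc on the matrix side, had 485.0 and 579.3 CPM in untreated cells and 394.5 and 412.6 CPM in G418 (log2 fold change -0.39, SE 0.09, adjusted p = 0.0055). COX6B1, COX6C and COX7B, small subunits of the outer shell, fell by 0.32, 0.30 and 0.29 on the log2 scale, with adjusted p of 0.024, 0.032 and 0.032. COX4I1, the largest nuclear-encoded subunit, was at -0.07 (SE 0.08, adjusted p = 0.69), and NDUFA4 and COX7A2L were at -0.14 and -0.17. Complex IV genes together took 0.335% ± 0.0049 of CDS reads in untreated cells and 0.306% ± 0.0023 in G418 (SD, n = 2).

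In complex III, UQCRHL and UQCR10 fell by 0.40 (SE 0.11, adjusted p = 0.016) and 0.31 (SE 0.09, adjusted p = 0.027) on the log2 scale. UQCRHL is a near-identical copy of UQCRH, the hinge protein, and the authors kept a single alignment for reads that map to several places, so the split of reads between these genes is uncertain. UQCRH itself was at -0.22 (SE 0.09, adjusted p = 0.15). The electron-carrying subunits UQCRFS1 (log2 fold change -0.09, SE 0.10) and CYC1, cytochrome c1 (-0.04, SE 0.09), and the core protein UQCRC1 (-0.09, SE 0.09) did not pass the test. In complex II, SDHD had 83.7 and 122.8 CPM in untreated cells and 68.5 and 81.4 CPM in G418, which missed the threshold (log2 fold change -0.41, SE 0.13, adjusted p = 0.052), and SDHC was at -0.18 (SE 0.10).

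Readthrough was measured by RRTS, the ribosome readthrough score. It sets the RPF density from the NTC to the next in-frame termination codon of the 3′UTR (the first 3′TC) over the density of the CDS, with 6 nt behind the NTC left out. Summed over all 60 members, reads before the first 3′TC were 384 and 124 in the untreated libraries and 2261 and 1833 in the G418 libraries. Set against the reads that the CDS density would place there, they gave a summed RRTS of 2.03% and 1.58% in untreated cells and 13.4% and 12.9% in G418. Over all transcripts with enough mRNA reads in each condition (the minimum the study set) the values were 2.00%, 1.81%, 15.8% and 15.1%. The G418 libraries of the members thus lay above their untreated libraries and below the G418 values of all transcripts.

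**Figure D4:**
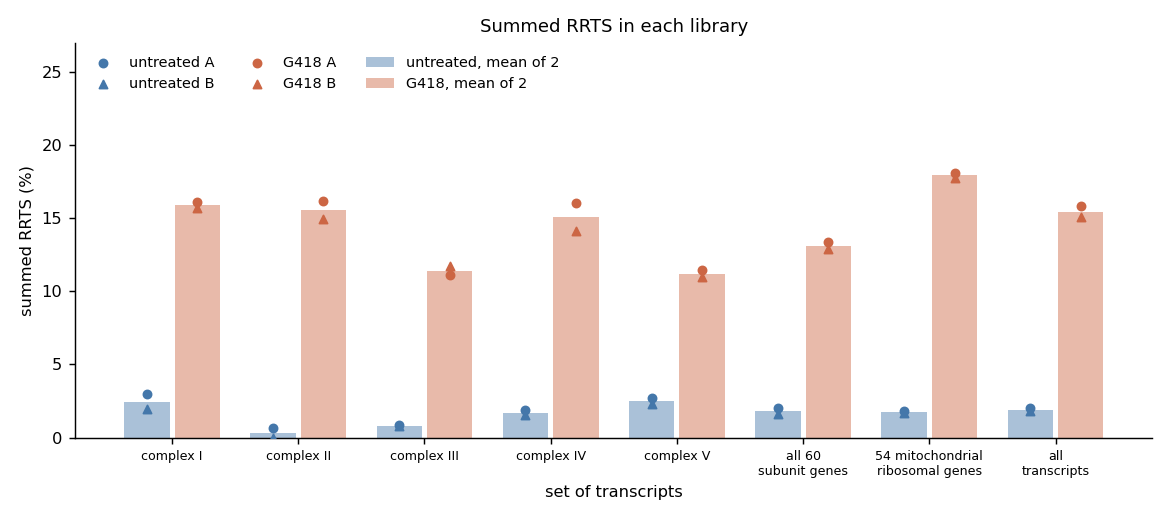
Summed RRTS in percent (reads up to the first 3′TC over those expected from CDS density) for each complex, for all 60 subunit genes, for 54 mitochondrial ribosomal protein genes and for all transcripts. Bars are means of 2 libraries and points the libraries, and in every set both G418 points are above both untreated points. Complexes III and V are lowest in G418 as drawn, and complex V is at 16.3% in its 9 members with the MANE Select stop codon and bases.

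Among the complexes, summed RRTS in G418 was 15.9% ± 0.318 for complex I, 15.5% ± 0.861 for complex II, 11.4% ± 0.412 for complex III, 15.1% ± 1.40 for complex IV and 11.2% ± 0.336 for the ATP synthase (SD, n = 2). The complex III and complex V libraries lay below those of the others, while complexes I, II and IV overlapped. The place of complex V depended on which members were counted, a split chosen after the data were seen. In members whose stop codon and bases up to the first 3′TC were those of the MANE Select transcript, the reference transcript agreed on by RefSeq and Ensembl, summed RRTS in G418 was 18.1% ± 0.279 for 23 genes of complex I, 13.7% ± 1.04 for 6 of complex III, 15.4% ± 1.34 for 7 of complex IV and 16.3% ± 0.710 for 9 of complex V (SD, n = 2). The complex V libraries then overlapped those of complex IV, and those of complex III remained the lowest, at 12.96% and 14.42% against 14.46% for the lower complex IV library. Summed RRTS weighs genes by CDS density and region length. Of the 6 complex III genes, UQCR10 and UQCRH weighed most, with pooled RRTS of 0.117 and 0.095 in G418. UQCRQ and UQCRC1 had 0.107 and 0.034, while CYC1 and UQCRFS1 had 0.594 and 0.300. The low sum thus did not hold for each gene of complex III. Of the 5 complex V members left out, ATP5F1E, ATP5PF and ATP5IF1 had no read before the first 3′TC in G418. In untreated cells the order was another, with 2.45% ± 0.740 for complex I, 2.49% ± 0.269 for complex V, 1.72% ± 0.215 for complex IV and 0.824% ± 0.0408 for complex III. Complex II rested on 1 read before the first 3′TC in untreated cells.

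Each transcript was then tested with edgeR on its reads before the first 3′TC, with CDS reads as offset, where at least 10 such reads were present over the 4 libraries. Of the 60 members 50 had enough reads. RRTS was higher in G418 in 45 of these and lower in none (all 50 log2 fold changes were above 0), against 82.6% of the 2827 transcripts tested higher and 0.0707% lower. In 33 of the 50 members there were under 10 such reads in untreated cells, none at all in 4, so these passed the filter only through G418 reads, the group where they are high. The counts therefore describe the tested members and not all 60. Of the other 17, 13 were higher, against 79.9% of the 289 transcripts with at least 10 untreated reads. In all 50 tested members the lower G418 library exceeded the higher untreated library, as in 93.8% of the transcripts tested, and the same filter bears on both. DESeq2 called 36 of the 50 higher, against 49.8% of the 2827 transcripts. The 9 calls it lost were NDUFA5, NDUFAB1, NDUFB10, NDUFV2, UQCRC1, UQCRC2, ATP5F1C, ATP5PB and ATP5PO. The median log2 fold change was 3.27 in the 50 members and 3.18 in all transcripts tested. It was 2.75 and 2.59 where transcripts without an untreated read were set against 3 reads.

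The highest RRTS in G418 belonged to CYC1, the heme-bearing subunit of complex III. It was 0.0400 and 0.0337 in untreated cells and 0.518 and 0.680 in G418, from 8 and 3 reads against 103 and 118 (log2 fold change 3.95, SE 0.32, edgeR adjusted p = 8.7e-34). NDUFA7, an accessory subunit of complex I, followed at 0.308 and 0.504 in G418 against 0.04996 and 0 in untreated cells (3.52, SE 0.41, adjusted p = 7.2e-17). COX5B came next at 0.445 and 0.283 in G418 against 0.0736 and 0.0616 (2.39, SE 0.23, adjusted p = 1.3e-23). In each of these the G418 libraries differed from each other by more than the untreated libraries did, and the groups did not overlap.

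SDHC, NDUFA6 and COX7A2L followed, with UQCRFS1 close behind, each with at most 2 untreated reads. SDHC, a heme-binding anchor of complex II, had 1 and 0 reads in untreated cells and 21 and 18 in G418, an RRTS ratio of 33.5 (95% interval 5.67 to 1357, counting error only). NDUFA6, a complex I subunit that binds the acyl carrier protein, had 2 and 0 reads against 29 and 24, a ratio of 20.1 (5.29 to 170.0). COX7A2L had 0 and 1 reads against 24 and 22, a ratio of 39.7 (6.77 to 1600.3), and UQCRFS1 had 1 and 0 reads against 21 and 21, a ratio of 34.5 (5.86 to 1394). These wide intervals rest on 1 or 2 untreated reads. The same held for NDUFS5 (0 and 1 reads against 28 and 19, ratio 33.8, 5.78 to 1363) and NDUFB5 (0 and 1 reads against 24 and 7, ratio 26.1, 4.35 to 1064), both accessory subunits of complex I.

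The stop codon contexts of 12 members are given below, as the last 15 coding bases, the stop codon and 12 bases of the 3′UTR, read 5′ to 3′ from GENCODE version 44 on hg38. Capitals mark the stop codon and the base that follows it, the bases known to matter most for termination. The first 6 are members with high RRTS in G418, NDUFA1, ATP5MC1 and ATP5MC2 had fewer CDS reads in G418, and UQCRC1, UQCRH and UQCRHL are complex III members with lower RRTS.
NDUFA7: gaccagccttacctgTGACactgcaccctc
COX5B: cagcagctggcacacTGAGcacctgcacta
SDHC: ttctccttatttgttTAGAtccttttgtat
NDUFA6: gttggccacgatccaTGAAgtcattcagtg
COX7A2L: cagcccaaaaacaaaTGAGttaggctgcag
UQCRFS1: atggtgattgttggtTAAGagacttggact
NDUFA1: ttggagaacattgatTAAGgaagcattttc
ATP5MC1: atcctcttcgccatgTGAGgctccatgggg
ATP5MC2: atcctctttgccatgTGAAggagccgtctc
UQCRC1: ttctggctgcgcttcTAGGcgggaagccta
UQCRH: tttaacaacttgaaaTAAAtgtgtggactt
UQCRHL: tttaacaacttgaaaTAAAtgtgtggactt

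These stop codons lie, on hg38, at chr19:8311505-8311507 (NDUFA7, minus strand), chr2:97648106-97648108 (COX5B, plus strand), chr1:161362538-161362540 (SDHC, plus strand), chr22:42086183-42086185 (NDUFA6, minus strand), chr2:42351219-42351221 (COX7A2L, minus strand) and chr19:29207548-29207550 (UQCRFS1, minus strand). Those of NDUFA1 (chrX:119876532-119876534, plus strand), ATP5MC1 (chr17:48895767-48895769, plus strand), ATP5MC2 (chr12:53665314-53665316, minus strand) and UQCRC1 (chr3:48599128-48599130, minus strand) follow, with those of UQCRH (chr1:46316582-46316584, plus strand) and UQCRHL (chr1:15807374-15807376, minus strand). All 12 are in the last exon of the transcript, with no intron after the stop codon. The 30 bases of UQCRH and UQCRHL are identical, although the genes lie at different places on chromosome 1.

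4 tested members had no read before the first 3′TC in either untreated library. Their fold changes are the lower limits of exact intervals, which cover counting error only. NDUFA10 had 17 and 26 reads in G418, an RRTS of 0.174 and 0.347, which was at least 9.59-fold higher. NDUFB8 had 10 and 12 reads (at least 4.68-fold higher), and NDUFB7 had 9 and 8 (at least 3.02-fold higher). The core protein UQCRC2, counted on a stop codon other than the MANE Select stop, had 7 and 4 (at least 2.34-fold higher). The 3 complex I genes among these 4 are accessory subunits. NDUFV1, which was not tested, had no untreated reads and 4 and 4 reads in G418, an RRTS of 0.114 and 0.142.

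**Figure D5:**
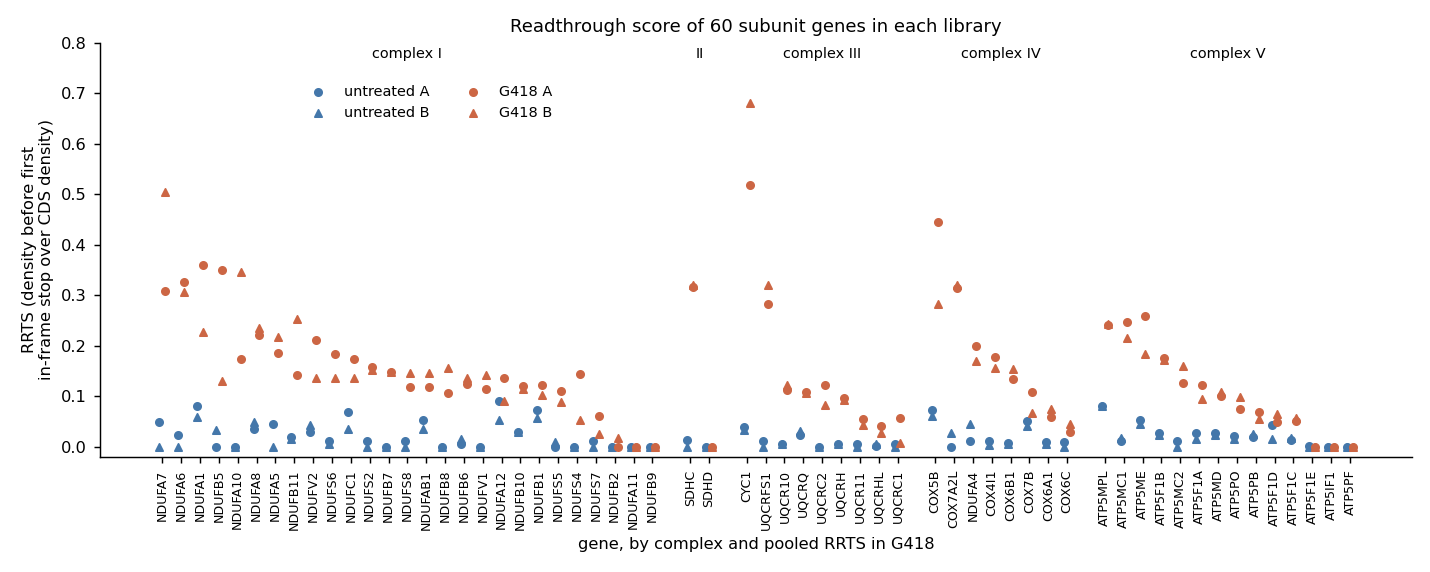
RRTS of each of the 60 subunit genes in the 4 libraries, grouped by complex and ordered by pooled RRTS in G418. Circles are replicate A and triangles replicate B, blue untreated and orange G418, and orange points run from 0 in both libraries for 6 genes to 0.680 for CYC1 while blue points stay under 0.1.

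The F1 head and the c ring genes ATP5MC1 and ATP5MC2 had reads in both conditions. ATP5F1B had RRTS of 0.0265 and 0.0243 in untreated cells and 0.175 and 0.172 in G418 (log2 fold change 2.74, SE 0.24, adjusted p = 1.0e-28), from 23 and 9 reads against 143 and 120. ATP5F1A had 0.0273 and 0.0163 in untreated cells and 0.123 and 0.0946 in G418 (2.17, SE 0.37, adjusted p = 4.1e-08). The stalk γ subunit ATP5F1C, counted on a stop codon other than the MANE Select stop, had 0.0133 and 0.0178 against 0.0519 and 0.0579 (1.89, SE 0.52, adjusted p = 6.3e-04). All of these genes had their libraries apart, and ATP5F1B had the closest agreement between replicates. Of the c ring genes, ATP5MC1 had 5 and 3 untreated reads against 68 and 51 in G418 (log2 fold change 4.08, SE 0.39, adjusted p = 2.8e-24), and ATP5MC2 had 2 and 0 against 16 and 17, a ratio of 16.4 (4.20 to 141.4). ATP5MC1 and ATP5MC2 thus had fewer CDS reads and a higher RRTS in G418.

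Of the other genes with many reads, UQCR10 had 13 and 6 reads in untreated cells and 200 and 184 in G418 (log2 fold change 4.23, SE 0.24, adjusted p = 6.5e-66). COX4I1 had 12 and 2 against 190 and 138 (4.20, SE 0.27, adjusted p = 9.0e-52), and UQCRH had 7 and 3 against 102 and 71 (3.90, SE 0.34, adjusted p = 2.3e-28). All 3 had RRTS under 0.012 in each untreated library and between 0.0936 and 0.179 in G418. UQCRHL had 1 and 1 reads against 17 and 9, a ratio of 13.5 (3.38 to 117.3). NDUFA4 had 3 and 4 reads against 43 and 30 (3.12, SE 0.47, adjusted p = 2.3e-10), and NDUFAB1 had 11 and 3 against 23 and 23 (1.43, SE 0.45, adjusted p = 0.0027).

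3 members had more reads before the first 3′TC than the rest in untreated cells. NDUFA1 had 50 and 14 such reads, an RRTS of 0.0814 and 0.0600, and 122 and 65 reads in G418, an RRTS of 0.361 and 0.227 (log2 fold change 1.99, SE 0.22, adjusted p = 3.5e-18). ATP5MPL, a small membrane subunit now named ATP5MJ, had 49 and 16 reads, an RRTS of 0.0805 and 0.0807, and 0.242 and 0.243 in G418 (1.59, SE 0.22, adjusted p = 2.7e-12). COX5B, described above, had 30 and 12 untreated reads. NDUFA1 and ATP5MPL had fold changes under the median of the tested members and untreated scores above most.

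5 tested members did not pass the test. NDUFA12 had RRTS of 0.0897 and 0.0536 in untreated cells and 0.137 and 0.0916 in G418 (log2 fold change 0.54, SE 0.60, adjusted p = 0.39), and NDUFB1 had 0.0720 and 0.0561 against 0.122 and 0.103 (0.74, SE 0.54, adjusted p = 0.19). ATP5F1D was at 0.81 (SE 0.58, adjusted p = 0.18), COX7B at 0.89 (SE 0.53, adjusted p = 0.10) and NDUFC1 at 1.37 (SE 0.72, adjusted p = 0.067). Each had between 27 and 41 reads over the 4 libraries, and the fold changes were all above 0. UQCRC1, the lowest scoring member that passed (1 and 0 reads against 9 and 1, ratio 8.02, 1.14 to 348.0, adjusted p = 0.031), rested on replicate A, in which G418 RRTS was 0.0569 against 0.0073 in replicate B, and it passed in 2 of 7 alternatives.

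6 members have no in-frame 3′TC before the end of the annotated mRNA, 10.0% of the 60 genes against 4.69% of all transcripts. Their score therefore covers the whole 3′UTR. COX6B1, which holds the cytochrome oxidase dimer together, had 4 and 1 untreated reads against 58 and 59 in G418 (log2 fold change 4.44, SE 0.44, adjusted p = 1.1e-22). NDUFV2, an iron-sulfur subunit of complex I, had 2 and 1 reads against 15 and 8, a ratio of 5.41 (1.63 to 28.1), and NDUFS8, another iron-sulfur subunit, had 1 and 0 against 11 and 12, a ratio of 17.0 (2.76 to 699.9). ATP5F1D and NDUFV1 are given above, and ATP5PF had no read there in any library.

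6 members had no read before the first 3′TC in either G418 library, although all had enough mRNA reads for the study's minimum. They were NDUFA11, NDUFB9, SDHD, ATP5IF1, ATP5PF and ATP5F1E. Zero reads allowed, at 3 reads over both libraries, an RRTS of up to 0.0029 for ATP5F1E, 0.0044 for ATP5PF and 0.0234 for SDHD. At the summed RRTS of all transcripts, 158 reads would have been placed in this region of ATP5F1E and 105 in that of ATP5PF. For 5 of the 6 the annotated stop codon of the counted transcript was not that of the MANE Select transcript of the gene, and for ATP5F1E the stop was the same but the bases after it differed. The part of transcript choice in these zeros was not tested beyond the split that follows.

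The counted transcript had the MANE Select stop codon and the same bases up to the first 3′TC in 45 of the 60 members, the same stop with other bases in 4 and another stop in 10, and COX7B's transcript was not placed. None of the 45 was without G418 reads. Their summed RRTS was 2.03% ± 0.306 in untreated cells and 15.8% ± 0.247 in G418 (SD, n = 2), against 2.05% ± 0.152 and 17.0% ± 0.539 for the 7473 transcripts of the same class. In the 10 with another stop it was 0.901% ± 0.224 and 3.85% ± 0.141, against 0.631% ± 0.0327 and 3.45% ± 0.378 for the 691 transcripts of that class. The members and the other transcripts of a class thus lay closer together in G418 than the classes did to each other. NDUFA12, one of the members that did not pass, and SDHC, among the highest, both have a stop codon other than the MANE Select stop.

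Stop codons were used unevenly among the members, with 41.7% TAA, 16.7% TAG and 41.7% TGA against 27.7%, 22.02% and 50.3% of all transcripts. Among the 45 members with the MANE Select stop and bases, summed RRTS in G418 was 13.2% ± 0.787 for 19 genes ending in TAA, 11.7% ± 0.406 for 7 ending in TAG and 20.1% ± 0.275 for 19 ending in TGA (SD, n = 2). The corresponding values for all transcripts of the class were 9.69% ± 0.447, 16.6% ± 0.439 and 24.5% ± 0.657. TGA genes were highest in both sets, whereas TAA members lay above all TAA transcripts and TAG members below all TAG transcripts in both G418 libraries. The members of 1 stop codon are few, and no test of these differences was made.

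With the following base, 4 members end in TGAC, which leads all transcripts with a summed RRTS of 31.4% ± 0.913 in G418. These were CYC1 and NDUFA7, the highest of all members, with NDUFB11 at a pooled RRTS of 0.192 and NDUFS8 at 0.131. TAAG ends 3 members, NDUFA1 (0.299), UQCRFS1 (0.300) and NDUFB5 (0.252), whereas the median over all transcripts ending in TAAG was 0.101. TAAA ends 14 members with a median of 0.107, against 0.120 for all transcripts. The context TAAG was thus at the low end among all transcripts and at the high end among these genes, which are only 3.

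Beyond the first 3′TC, reads of the members were 222 and 74 in untreated cells and 591 and 445 in G418. Relative to CDS density they came to 0.159% and 0.142% in untreated cells and 0.488% and 0.446% in G418, against 0.283%, 0.249%, 0.697% and 0.673% for all transcripts. These levels were a small fraction of those before the first 3′TC in every library. At the other end of the mRNAs, 5′UTR reads were 3.42% and 3.49% of the members' mRNA reads in untreated cells and 2.53% and 2.58% in G418, and 4.60%, 5.26%, 4.41% and 4.53% for all transcripts. The groups did not overlap for the members or for all transcripts, and lay closer for all transcripts.

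Other genes of the pathway were read in the same tests. Of 38 assembly factors tested for CDS reads 3 rose (7.89%) and 2 fell (5.26%), against 5.31% and 3.21% of all transcripts, with a median log2 fold change of -0.06. COA1 rose by 0.74 (SE 0.14, adjusted p = 9.5e-04), UQCC3 by 0.55 (SE 0.17, adjusted p = 0.035) and TIMMDC1 by 0.33 (SE 0.10, adjusted p = 0.046), while COA3 fell by 0.57 (SE 0.11, adjusted p = 0.0010) and COX14 by 0.45 (SE 0.14, adjusted p = 0.045) on the log2 scale. COA3 and COX14 act together on the newly made COX1 protein of complex IV, and TIMMDC1 and COA1 act on the membrane arm of complex I. RRTS was higher in 19 of the 23 tested assembly factors, 82.6%, the same share as over all transcripts tested. All of the 23 but SCO1 had under 10 reads before the first 3′TC in untreated cells. They passed the filter only through G418 reads, the group where they are high, so the share describes the tested factors only. The copper chaperone SCO1 had a pooled RRTS of 0.807 in G418 against 0.0562 in untreated cells.

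Among 12 citric acid cycle genes 3 fell and none rose, against 3.21% lower and 5.31% higher of all transcripts, with a median log2 fold change of -0.25 and 11 values below 0. Malate dehydrogenase MDH2 fell by 0.33 (SE 0.08, adjusted p = 0.0093) and SUCLG1, a subunit of succinyl-CoA ligase, by 0.33 (SE 0.09, adjusted p = 0.025) on the log2 scale. Of 10 genes of coenzyme Q synthesis and cytochrome c maturation 1 rose, the heme lyase HCCS (log2 fold change 0.42, SE 0.12, adjusted p = 0.025). Of 15 genes of mitochondrial gene expression and biogenesis 1 rose, the nuclear receptor ESRRA (0.80, SE 0.23, adjusted p = 0.026). The 54 mitochondrial ribosomal protein genes, which build the ribosome that makes the mitochondrially encoded subunits, had 1 higher (1.85%) and 2 lower (3.70%), against 5.31% and 3.21% of all transcripts, and a median of -0.04. The single calls in the lists of 10 and 15 genes likewise stand beside a share of 5.31% higher over all transcripts.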

How the data were processed

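Members and gene lists were chosen with earlier results of these data known. The authors collapsed duplicate reads by molecular identifier, removed noncoding RNA, aligned to hg38 with STAR (GENCODE 30), kept a single alignment per multi-mapping read, and assigned RPFs of 28 to 35 nt to 1 transcript of each gene. Counts, as deposited, are unnormalized RPFs per region, the deposited RPM values the same reads scaled to library size, and the deposited RPKM values RPM per kilobase of the shortened region. RRTS and the occupancy of the 3′UTR were deposited as ratios. The 5′UTR densities, treated as a score, were deposited by the authors and not used. Whole reads were recovered from RPM (100% of values within 0.02 of a whole number), and the deposited counts equalled these reads or 1 less.

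CDS counts were tested with edgeR 4.0.16 (R 4.3.3, quasi-likelihood, TMM, filterByExpr, Benjamini-Hochberg over all transcripts, 0.05). RRTS was tested with edgeR on recovered reads up to the first 3′TC. The offset was the log of CDS reads (0.5 added). Transcripts needed 10 of these reads summed over libraries, and mRNA reads at the study's minimum in each condition. Both tests were checked on simulated data. Alternatives were DESeq2 1.42.0, library totals, no filter, recovered reads, CDSs of at most 1000 nt, minimums of 5 and 20 reads, the whole 3′UTR, the replicate letter as a block, and leaving out each library. RRTS ratios with 3 or fewer untreated reads have exact 95% intervals (conditional binomial, Clopper-Pearson). All intervals and floors of 3 reads cover counting error only. Depth was 2440204 to 6082600 mRNA reads per library.

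Genes were named where they passed a test (up to 10 per direction by fold change), had the 6 highest or lowest G418 RRTS, the 2 highest or lowest densities of a complex, no in-frame 3′TC, or a central role in a complex. Genes named outside this rule were chosen after their values were seen. Stop codon contexts came from GENCODE version 44. Python 3.11.15, pandas 2.3.3, numpy 2.4.6, scipy 1.17.1 and matplotlib 3.10.9 were used. The values of a citric acid cycle gene are not reported here.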

Additional observations from a re-analysis of the deposited data

How the results depend on the processing

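For CDS reads, DESeq2 called 5 members lower and 0 higher (22 at an unadjusted p under 0.05), against 1.65% and 1.33% of all transcripts. NDUFA1, COX5B, ATP5IF1, ATP5MC1 and ATP5MC2 kept the call. Library totals gave 5 lower and 4 higher with a median log2 fold change of -0.011, against 1.41% and 10.4% of all transcripts. The replicate block gave 15 lower and 4 higher, against 5.32% and 7.28% of all transcripts. Restricting to members with the MANE Select stop and bases, chosen after the data were seen, left 9 lower and 0 higher of 45. The shares over all transcripts were 3.21% and 5.31%. Leaving out a library gave 1 to 26 members lower, 0 to 8 higher and medians from -0.16 to -0.11, with the low counts where 1 G418 library remained, which is then assumed to vary like the untreated pair. Without untreated replicate B, ATP5F1D (0.19) and NDUFS8 (0.21) reversed and passed the threshold, and their log2 fold changes leaving out a library ran from -0.40 to 0.19 and from -0.26 to 0.21. The cause was not tested in any of these. No filter, recovered reads and CDSs of at most 1000 nt gave 12 to 13 lower and 1 higher. For RRTS, 36 (DESeq2) to 48 (whole 3′UTR) members were higher and none lower. The shares of all transcripts tested that were higher were 49.8% and 70.3% in these 2 settings. With at least 20 reads 42 of 47 members were higher, against 92.4% of all transcripts tested. The members' median was then 3.12, below the 3.35 of all transcripts tested. With the whole 3′UTR the medians were 2.78 and 2.38. Leaving out a library, the members' median ran from 3.02 to 3.28, against 3.21 to 4.79 for all transcripts tested. The block gave 43 of 50 higher, against 65.5% of all transcripts tested. The summed CDS share was 1.93% and 1.89% (untreated and G418) without ATP5F1B, the member with the most reads, and 1.82% and 1.77% in the 45 members, whose summed RRTS in G418 was 15.8%. By complex, these members gave 18.1% (I), 13.7% (III) and 16.3% (V) in G418, and 1.002% (III) and 3.23% (V) in untreated cells. Aggregate RRTS could not be recomputed from deposited counts, which do not cover the region before the first 3′TC.

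Sharing a letter did not show pairing by a label. The correlation of A minus B between conditions was 0.14 over 8494 transcripts, with 2 pairs. Among named genes, 303 of the CDS results under single alternatives kept their side of the threshold, 39 lost and 31 gained it, and 2 reversed. A change of sign was counted as reversed only where the main or the alternative fit passed the threshold, so the 303 can include other changes of sign. For RRTS 338 kept their side of the threshold, 21 lost and 1 gained it. With 2 libraries a group, genes with few reads after the NTC set the limit.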
